A study of Rattus norvegicus with 4 samples.

Results

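L-SFMA against SFMA is the comparison of cells grown on one modified hydrogel, L-SFMA, with cells grown on the plain hydrogel, SFMA, with 1 RNA-seq library on each side and thus 2 of the 4 libraries in the series. Of 18755 genes in the deposited tables, 12143 had an FPKM (reads scaled by gene model length and by library size) of at least 1 in either library and were compared. The lowest value kept was 1.00 FPKM and the highest left out was 0.999 FPKM. All groups held primary cells from the cerebral cortex of SD rats at embryonic day 16, seeded at 100000 cells per well and kept for 24 h in Neurobasal medium with B27 and PS. Per the labels the groups differed by the hydrogel: SFMA, L-SFMA (whose treatment label reads L@SFMA), N-SFMA and NL-SFMA, each with 5 parallel wells. The sources used here do not state what N and L stand for, nor whether RNA from the wells of a hydrogel was combined. The series title and design text name cell-cell adhesion cues in a hydrogel and neural growth as the subject. N-SFMA and NL-SFMA are given as further values only. They use the same SFMA library as control, so their differences from SFMA are not independent of the one described here.

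At embryonic day 16 the rat cortex holds radial glia, the stem cells along the ventricle, together with the intermediate progenitors they produce and young projection neurons that grow axons. Growing axons and migrating neurons read their surroundings through adhesion molecules and through guidance receptors such as plexins, neuropilins, Eph receptors and Robo proteins. Radial glia depend on growth factor signalling, including fibroblast growth factor (FGF) signalling through the kinase ERK, which induces ETS transcription factors of the PEA3 family and Sprouty inhibitors that limit the signal.

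The summed counts were 17553098 reads for SFMA, 16340264 for L-SFMA, 15429180 for N-SFMA and 14172205 for NL-SFMA. A gene with no read in a library could be present at up to 0.171 to 0.212 CPM (counts scaled by library size), the level of 3 counts, by counting error alone. Markers of the labelled tissue were present: all 9 markers of cortical neurons and all 7 of radial glia and progenitors were among the compared genes. The summed level of the neuron markers was 2952 FPKM on SFMA and 3336 on L-SFMA, and that of the radial glia and progenitor markers was 1512 and 728 FPKM. The lower sum lay in Vim and Fabp7 (1088 and 264 FPKM on SFMA, 486 and 58.9 on L-SFMA), with Sox2 and Pax6 also below SFMA, whereas Hes5, Nes and the intermediate progenitor marker Eomes had higher FPKM on L-SFMA. None of the 5 endothelial markers found and none of the 3 pericyte markers reached 1 FPKM in either library. Each hydrogel has a single library and thus no replicate spread to set a difference against, so no p-value is given, and sizes are described with counting intervals only. In these bulk samples, fewer cells of a type and less RNA per cell cannot be told apart.

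The differences depended on gene length, and this trend was removed before functions were described. The measured log2 difference, log2((FPKM on L-SFMA + 1)/(FPKM on SFMA + 1)), correlated with log2 gene model length at r = 0.54 across the 12143 genes, which are not independent replicates. Its median was -0.63 for the 558 genes with models of 500 to 1000 bases and 0.70 for the 634 genes over 8000 bases. A smooth curve (lowess) of the difference on log2 length was subtracted, after which those medians were -0.05 and -0.01 and the correlation was -0.13. For the 272 genes under 500 bases the median went from -0.58 to 0.26, so the correction overshot there and corrected values of very short models lie too high. What caused the trend was not tested. Values below are corrected log2 differences of L-SFMA from SFMA unless they are called measured, and levels are FPKM.

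**Figure D1:**
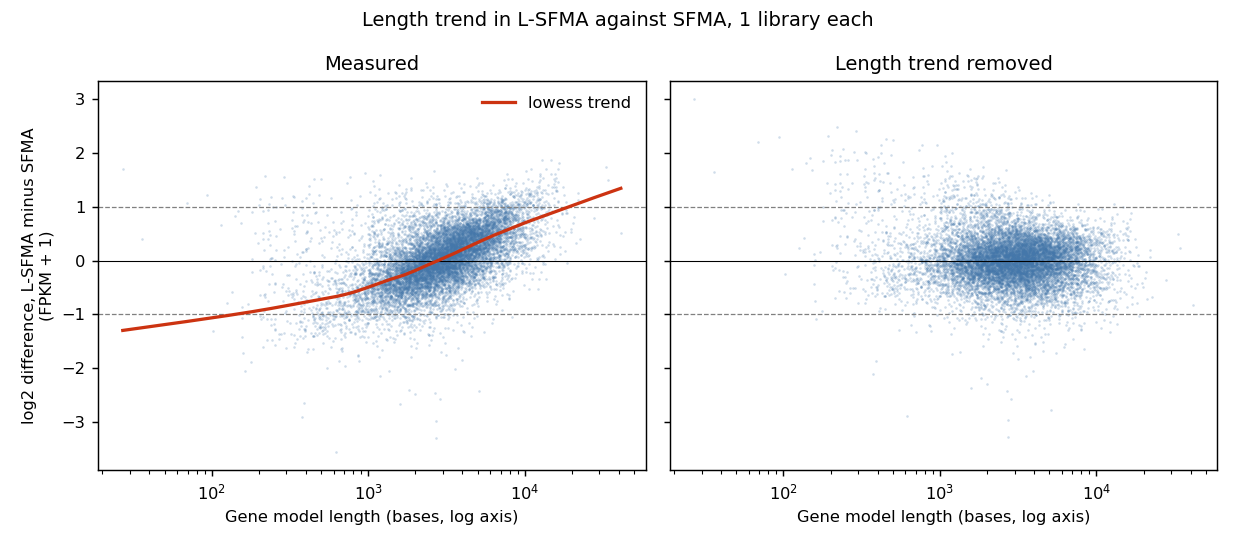
Each point is 1 of 12143 genes, with gene model length in bases on a log axis and the log2 difference of L-SFMA from SFMA on the vertical axis, as measured with the lowess trend as a line and with the trend removed. The measured difference climbs with length from a median of -0.63 at 500 to 1000 bases to 0.70 over 8000 bases. After removal the median is level except under 500 bases.

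After correction 288 genes (2.37% of those compared) were at least 2-fold higher on L-SFMA and 152 (1.25%) at least 2-fold lower. As measured these numbers were 412 (3.39%) and 377 (3.1%), and 124 higher and 104 lower genes were past 2-fold both ways. With TMM scaling and no correction they were 332 and 447, so the share of higher calls rests on the correction and the scaling. The lower genes were better measured than the higher ones. Their median level in the higher library was 15.1 FPKM and their median model length 3065.5 bases, beside 12.1 FPKM and 2973 bases over all compared genes. The higher genes had a median of 5.15 FPKM and 1189.5 bases, and 73 of them had models under 500 bases. The calls still varied with length among longer models. At 1000 to 2000 bases 110 genes were higher and 28 lower, and at 4000 to 8000 bases 10 were higher and 42 lower. The counting interval of each ratio was then shifted by the removed trend. So shifted, it lay beyond 1.5-fold for 151 of the 152 lower and 250 of the 288 higher genes. These counts include genes such as Gm17651, whose interval before the shift, 0.824 to 2.15, includes 1. The interquartile range over all compared genes was -0.24 to 0.25.

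The 15 named genes with the largest corrected decrease were led by a thyroid hormone transporter, FGF-induced factors, immediate early genes, globins and metallothioneins, and all 15 were also past 2-fold as measured. Levels are given in the order SFMA, L-SFMA, N-SFMA and NL-SFMA. Slco1c1, which carries thyroid hormone across the cell membrane, was at 13.01, 0.428, 0.381 and 0.727 FPKM. It was high on SFMA alone, and its CPM ratio of SFMA to L-SFMA was 30.4 (95% counting interval 19.3 to 50.9). Etv4, an ETS factor induced by FGF signalling, was at 13.5, 0.836, 0.455 and 0.651 FPKM, a ratio of 16.2 (11.6 to 23.2). Spry4, a Sprouty inhibitor of receptor tyrosine kinase signalling, was at 7.64, 0.602, 0.191 and 0.541 FPKM, a ratio of 12.7 (9.52 to 17.3). In each of these 3 genes SFMA was the only library above 1 FPKM. The actin-binding gene Cnn2 (33.3, 5.45, 7.12 and 7.13 FPKM) and the beta-tubulin Tubb6 (23.8, 6.34, 7.23 and 4.87 FPKM) were lower on L-SFMA by 2.18 and 1.82 on the corrected log2 scale. Rhbdf1, an inactive rhomboid protein that helps to traffic a membrane protease, was at 8.44, 1.92, 1.39 and 1.28 FPKM. Fabp7, the lipid-binding protein of radial glia, was at 264, 58.9, 46.7 and 41.6 FPKM. The other members of the 15 are described with their groups below.

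The 15 named genes with the largest corrected increase shared no single list: 2 of them, Hes5 and Gpr161, belong to the 109 gene lists used here, whereas 14 of the 15 lowest do. Only 10 of the 15 were past 2-fold as measured, and 8 had models under 1000 bases. Tro, which encodes the adhesion protein trophinin, was at 27.3, 64.3, 72.9 and 65.7 FPKM with a ratio of L-SFMA to SFMA of 2.36 (95% counting interval 2.10 to 2.65). SFMA was the lowest library for this gene and the other three lay close together. Ptprk, a receptor tyrosine phosphatase that takes part in cell contacts, was at 8.13, 21.0, 14.9 and 16.5 FPKM, a ratio of 2.59 (2.198 to 3.05). Prkaa2, a catalytic subunit of the energy sensor AMPK, was at 1.98, 7.01, 6.15 and 12.5 FPKM, a ratio of 3.54 (2.85 to 4.42). Ago4, an Argonaute protein of small RNA silencing, was at 1.53, 5.85, 4.49 and 8.63 FPKM, and Gpr161, a receptor of the primary cilium that restrains hedgehog signalling, was at 7.52, 19.3, 13.7 and 19.0 FPKM. The sialyltransferase St8sia3 was at 9.56, 20.6, 17.2 and 32.3 FPKM. For Prkaa2, Ago4 and St8sia3 the NL-SFMA library was higher still than L-SFMA.

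Hes5, a target of Notch signalling in radial glia, and Fgf22, an FGF ligand of synapse formation, had another order. Hes5 was at 10.5, 18.0, 7.77 and 5.84 FPKM, so that L-SFMA was the highest and NL-SFMA the lowest library. Fgf22 was at 6.69, 13.8, 7.09 and 8.98 FPKM, with L-SFMA again the highest. Their measured log2 differences, 0.72 and 0.95, were below 2-fold, and the corrected values, 1.41 and 1.44, passed it through the trend of short models (592 and 1014 bases). Ghrl, the precursor of the hormone ghrelin, was at 2.51, 9.06, 3.89 and 8.75 FPKM on 22 reads in SFMA and 74 in L-SFMA. The muscle phosphoglycerate mutase Pgam2 (4.53, 10.2, 7.16 and 10.1 FPKM), the chemokine-binding receptor Ackr1 (3.54, 8.68, 5.90 and 6.49 FPKM), Rnf24 (10.01, 19.7, 16.4 and 31.7 FPKM) and the RNA-binding protein Nanos1 (5.04, 8.58, 6.30 and 4.99 FPKM) were also low to moderate in level. Gm17364 and Gm17651 have models of 69 and 36 bases, where the removed trend was -1.13 and -1.25. Gm17651 was 0.40 as measured and its counting interval for the ratio, 0.824 to 2.15, includes 1, so its place among the 15 rests on the correction.

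**Figure D2:**
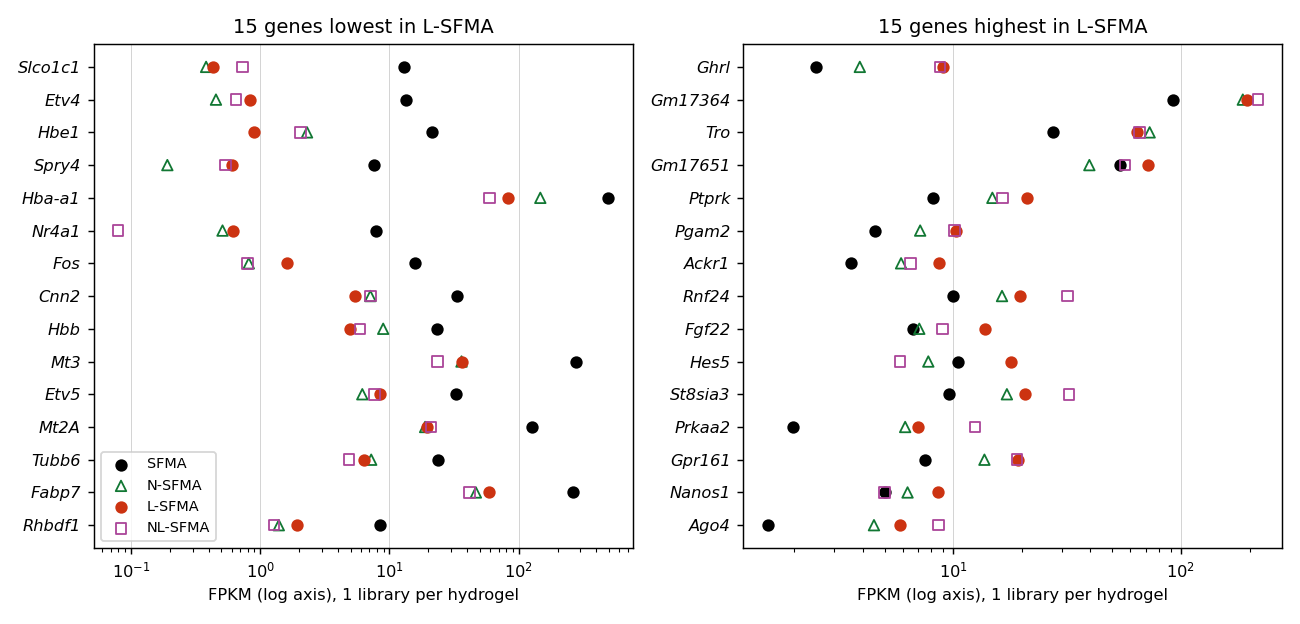
FPKM on a log axis in each of the 4 libraries, 1 marker per library, for the 15 named genes with the largest corrected decrease on L-SFMA and the 15 with the largest corrected increase. Among the decreases the SFMA marker lies to the right of the other three, as for Slco1c1 (13.01 FPKM against 0.428 on L-SFMA), while the increases span smaller distances, as for Tro (27.3 against 64.3 FPKM).

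Functions were described with 109 gene lists that together hold 3372 of the compared genes (27.8%). Of the 107 lists with at least 5 compared members, 12 had a corrected median at least 0.25 above SFMA and 21 at least 0.25 below. The 12 higher lists were plexins and neuropilins, semaphorins, Eph receptors and ephrins, the large cadherins, immunoglobulin adhesion molecules, protocadherins, projection neurons, GABA and glycine receptors, glutamate receptors, synaptic organisers, HECT and giant ubiquitin ligases, and mitochondrially encoded genes. Other adhesion lists were not among them, with medians of 0.09 for classical cadherins, -0.13 for brain proteoglycans, -0.15 for laminins and collagens and -0.21 for integrins. As measured these medians were 0.33, 0.21, 0.31 and 0.18, so the negative signs appear only with the correction. The classical cadherins and the laminins and collagens were past 0.25 as measured. Of the 21 lower lists, 5 concerned cell types or their factors (radial glia, astrocytes, oligodendrocytes, Sox factors and red blood cells), 2 cell division, 5 induced genes (immediate early, FGF and ERK feedback, SRF, NF-kappaB and interferon) and 1 septins. The other 8 were the cytosolic and mitochondrial ribosome, the elongation and termination list, complex I, complexes II to V, the proteasome, serine and one-carbon synthesis, and antioxidant enzymes. As measured, 35 lists were higher and 26 lower by the same rule. Of the corrected sets, 11 higher and 16 lower lists passed both ways. The mitochondrially encoded genes, FGF and ERK feedback genes, SRF targets, septins, Sox factors and astrocyte genes passed only with the correction. Over 16 alternative settings, 11 of the 33 lists were past 0.25 in each one that gave them a value: the plexins and neuropilins, the large cadherins, projection neurons, radial glia, red blood cells, replication, mitosis, cytosolic ribosome, complex I, complexes II to V and serine synthesis. The other 22 fell short of 0.25 in at least 1. Members were counted at 1.5-fold, where the background was 971 genes higher (8% of those compared) and 882 lower (7.26%).

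**Figure D3:**
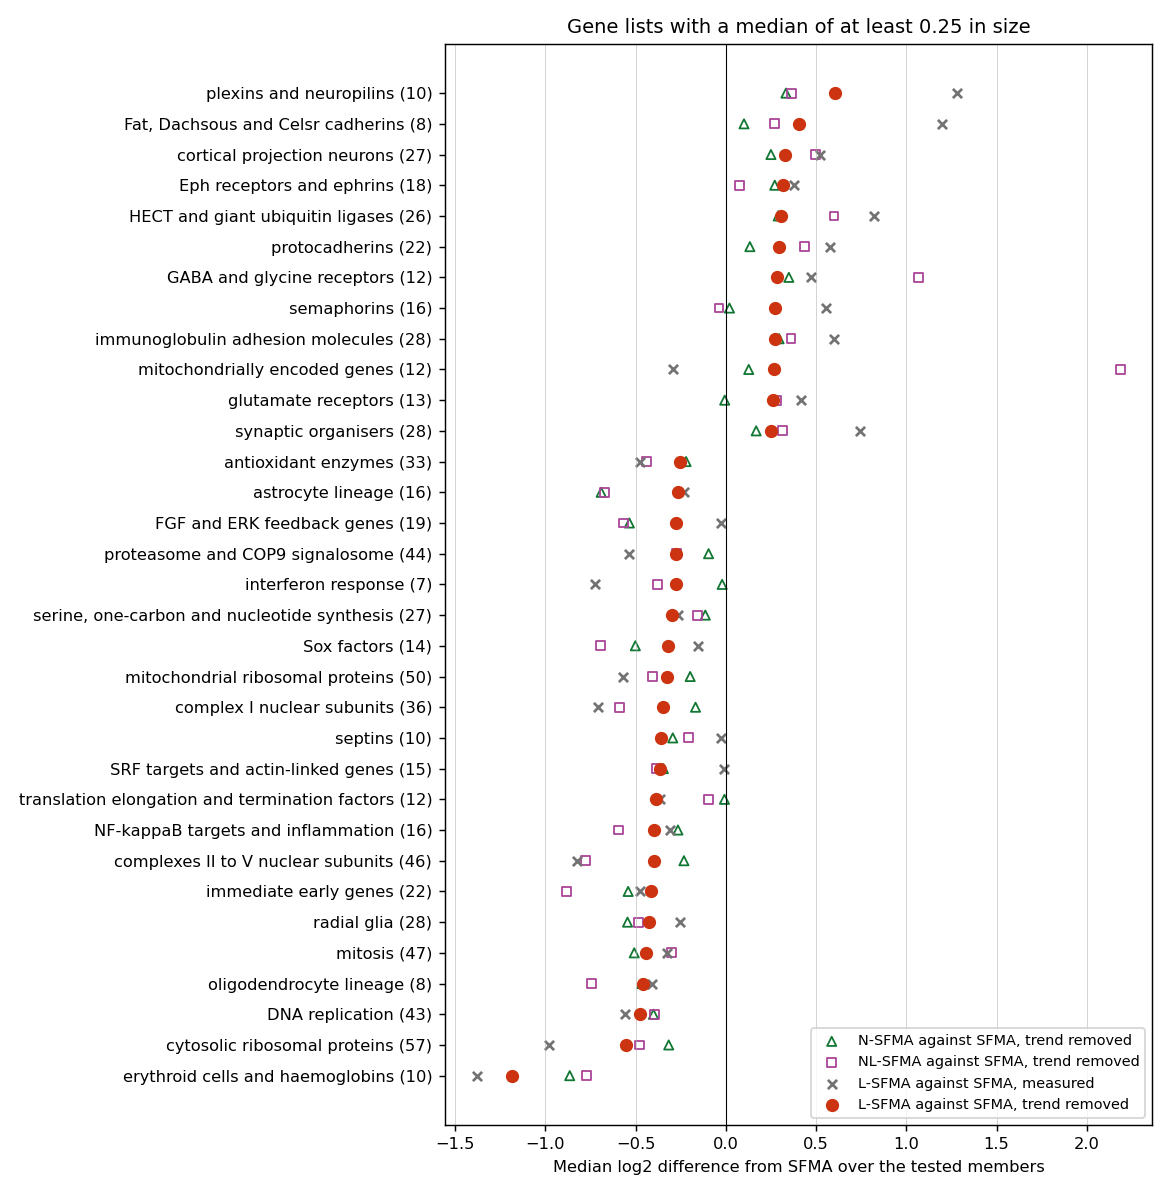
Median log2 difference from SFMA for each of the 33 lists past 0.25, with the number of compared members in brackets. Filled circles are L-SFMA with the length trend removed, crosses L-SFMA as measured, triangles N-SFMA and squares NL-SFMA with the trend removed, and the erythroid list lies lowest at -1.19 and the plexins and neuropilins highest at 0.61 for L-SFMA.

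Receptors for axon guidance gave the highest list median. The plexins and neuropilins, which together form the receptors for semaphorins, had a median of 0.61, with 5 of 10 at least 1.5-fold higher (Nrp1, Nrp2, Plxna2, Plxna3 and Plxna4) and 0 lower. The median was 0.33 on N-SFMA and 0.36 on NL-SFMA. Nrp1, the neuropilin that binds class 3 semaphorins, was at 9.15, 28.5, 18.6 and 32.9 FPKM. SFMA was the lowest and NL-SFMA the highest library, and the ratio of L-SFMA to SFMA was 3.12 (2.88 to 3.38). The signalling partners of neuropilins were also higher: Plxna4 at 3.33, 14.8, 9.198 and 18.4 FPKM, Plxna2 at 17.0, 56.3, 38.3 and 76.7 FPKM and Plxna3 at 8.21, 24.9, 14.6 and 18.8 FPKM. Their corrected differences were 1.05, 0.96 and 0.95. Plxna3 was highest on L-SFMA, whereas Plxna4 and Plxna2 were highest on NL-SFMA. The list ranged down to -0.24 for Plxnd1, so not all plexins lay above SFMA.

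Among the ligands, 3 of 16 semaphorins were at least 1.5-fold higher and 0 lower, with a median of 0.27. On N-SFMA and NL-SFMA the median of this list was 0.02 and -0.04. Sema3c, a secreted ligand of neuropilins, was at 28.4, 70.6, 57.6 and 113 FPKM, a corrected difference of 0.95. The membrane semaphorin Sema6c was at 25.4, 42.6, 27.4 and 23.1 FPKM and the membrane-anchored Sema7a at 27.9, 41.8, 37.5 and 24.8 FPKM, and for both L-SFMA was the highest library and NL-SFMA the lowest. Ephrins and their Eph receptors, which signal by contact between cells, had a median of 0.32, with 4 of 18 higher and 0 lower. The ephrin Efnb2 was at 47.8, 80.6, 66.2 and 63.1 FPKM and the receptors Epha3, Epha5 and Epha4 at 13.7, 29.3, 25.2 and 35.8 FPKM, at 7.95, 21.0, 14.2 and 26.9 FPKM and at 14.2, 31.3, 22.4 and 39.6 FPKM. For all 3 receptors the level was lowest on SFMA. Slit ligands, Robo receptors, netrins and their partners had a median just under the size rule, with 6 of 22 higher and 0 lower, led by the netrin relative Ntng2 (42.1, 72.8, 58.6 and 60.0 FPKM) and the Robo-binding Srgap3 (7.33, 16.7, 12.999 and 24.0 FPKM).

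The large cadherins Fat, Dachsous and Celsr, which organise cell polarity between neighbours, had a median of 0.41. All 8 compared members lay above SFMA and 3 were at least 1.5-fold higher, namely Fat4, Dchs1 and Celsr3. Fat4 was at 2.57, 11.6, 6.17 and 14.6 FPKM and its binding partner Dchs1 at 12.3, 37.2, 24.0 and 33.6 FPKM, corrected differences of 0.88 and 0.80. These are among the longest models here, and the measured median of 1.20 was mostly removed with the trend. Adhesion molecules of the immunoglobulin family had a median of 0.27, with 8 of 28 higher and 0 lower. Cntn2, a contactin on the axons of young neurons, was at 36.0, 99.1, 68.4 and 84.9 FPKM, a ratio of 2.75 (2.64 to 2.87), with L-SFMA the highest library. The axonal adhesion molecule L1cam was at 21.0, 51.2, 40.9 and 47.4 FPKM, Igsf3 at 10.1, 31.0, 19.5 and 24.8 FPKM and Negr1, which is tethered to the neuronal membrane, at 9.48, 18.3, 19.0 and 27.9 FPKM.

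Protocadherins, which give neurons surface identities, had a median of 0.29, with 6 of 22 higher and 1 lower. Pcdh8 was at 12.4, 28.3, 15.1 and 14.01 FPKM, with L-SFMA as the highest library. Pcdhga5 went the other way after correction (-0.83) although its level was 8.21, 12.2, 10.99 and 9.26 FPKM and its measured difference 0.51. Members of the clustered families share sequence, and their reads may have been split between them. The classical cadherins and catenins, which build adherens junctions, had a median of 0.09 (0.33 as measured), with 1 of 16 higher (Cdh8) and 0 lower. The neuronal cadherin Cdh2 was at 63.2, 97.3, 83.7 and 154 FPKM (0.36 corrected) and its partner Ctnna1 at 48.4, 37.2, 39.98 and 35.4 FPKM (-0.52).

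Transcription factors and markers of cortical projection neurons had a median of 0.33, with 7 of 27 at least 1.5-fold higher and 0 lower. The measured median was 0.52, and the corrected median was 0.25 on N-SFMA and 0.49 on NL-SFMA. Upper-layer genes led the list. Mdga1, an adhesion protein of upper-layer neurons, was at 32.3, 79.8, 52.9 and 60.7 FPKM, a ratio of 2.47 (2.34 to 2.60). The upper-layer factor Cux2 was at 8.01, 19.0, 13.3 and 12.9 FPKM. Mef2c, an activity-regulated factor of maturing neurons, was at 8.48, 17.1, 19.3 and 37.3 FPKM. SFMA was the lowest library for these 3 genes, and the corrected differences of Cux2 and Mef2c were 0.80 and 0.85. Genes of intermediate progenitors, the cells between radial glia and neurons, had a median of 0.22, with 4 of 15 higher (Eomes, Neurog2, Neurod4 and Neurog1) and 0 lower. Their defining factor Eomes was at 36.5, 77.7, 78.2 and 51.0 FPKM, a ratio of 2.13 (2.00 to 2.27), and the proneural factor Neurog2 at 74.2, 88.1, 68.2 and 31.0 FPKM. Neurog2 was highest on L-SFMA and lowest on NL-SFMA. The corrected difference of Neurog2 was 0.84 but went down to 0.18 over the alternative settings, so its place among the higher members rests on the processing. That of Eomes was 1.16 and went down to 1.01. The corrected median of the intermediate progenitor list was 0.18 on N-SFMA and -0.49 on NL-SFMA.

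Receptors for the inhibitory transmitters GABA and glycine had a median of 0.28, with 3 of 12 higher and 0 lower, and 1.07 on NL-SFMA. The GABA receptor subunit Gabra2 was at 8.25, 14.1, 12.2 and 25.9 FPKM, a corrected difference of 0.84, and was lowest on SFMA. Glutamate receptors had a median of 0.26, with 2 of 13 higher (Grin2b and Grin3b, both under 5 FPKM) and 0 lower. Better expressed members were below 1.5-fold, with the kainate receptor Grik3 at 4.43, 7.74, 6.15 and 9.39 FPKM and the AMPA receptor Gria1 at 7.23, 11.1, 11.1 and 15.6 FPKM. Synaptic organisers, the adhesion proteins that align the sides of a synapse, had a median of 0.25, at the edge of the rule and below it in 9 alternatives, with 5 of 28 higher (Clstn2, Slitrk1, Tenm2, Tenm4 and Nlgn3) and 0 lower. The calsyntenin Clstn2 was at 4.98, 14.9, 10.1 and 21.6 FPKM, the teneurin Tenm4 at 5.39, 16.2, 9.79 and 17.9 FPKM and the neuroligin Nlgn3 at 16.7, 29.0, 22.4 and 28.9 FPKM, each with SFMA as the lowest library. The release machinery of synaptic vesicles did not pass the size rule (0.22, with 4 of 41 higher, Syt1, Syt4, Rph3a and Bsn, and 0 lower), although its calcium sensor Syt1 was at 7.03, 13.3, 14.05 and 18.1 FPKM, a corrected difference of 1.05. Interneuron genes had a median of 0.04.

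**Figure D4:**
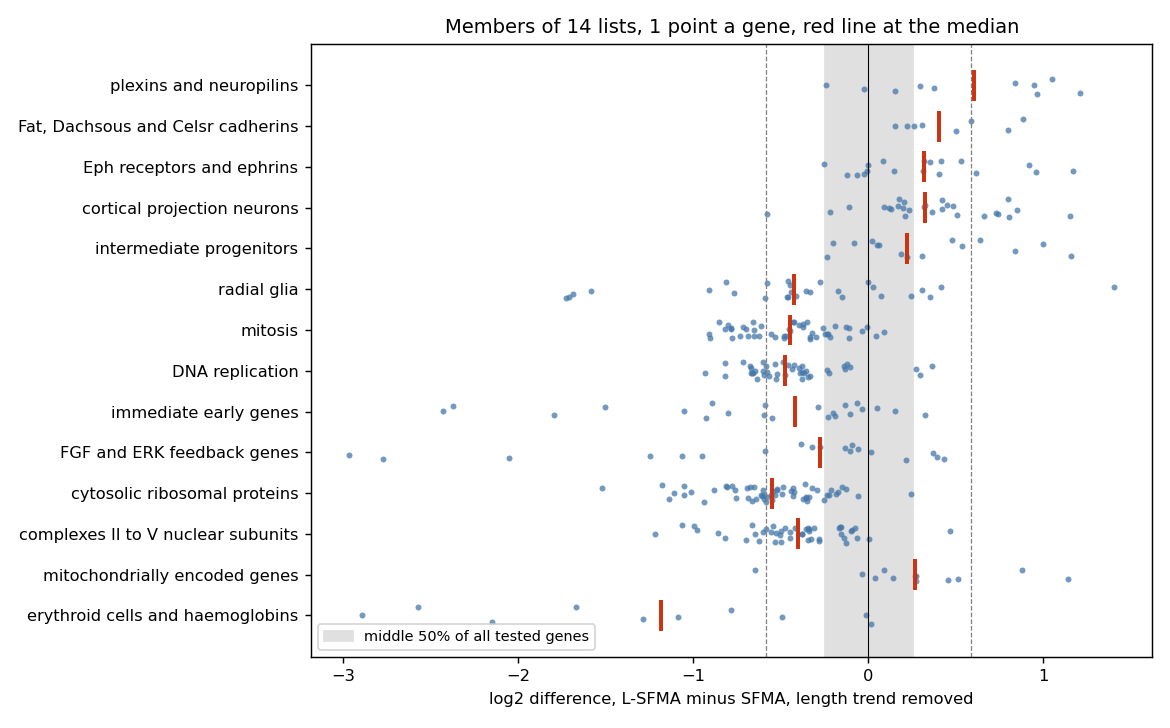
Corrected log2 differences of L-SFMA from SFMA for the compared members of 14 gene lists, 1 point per gene, with the list median as a red line and the interquartile range of all compared genes shaded. Medians run from 0.61 for the plexins and neuropilins to -1.19 for the erythroid list, and single members of most lists fall on both sides of 0.

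Radial glia genes had a median of -0.43, with 8 of 28 at least 1.5-fold lower and 1, Hes5, higher. The measured median was -0.25, and the corrected one was -0.55 on N-SFMA and -0.49 on NL-SFMA. Slc1a3, the glial glutamate transporter, was at 22.1, 8.23, 6.39 and 10.6 FPKM, and the SFMA to L-SFMA ratio was 2.68 (2.46 to 2.92). Sox3, a factor that keeps neural progenitors undifferentiated, was at 74.4, 17.2, 10.9 and 6.12 FPKM, a ratio of 4.32 (3.87 to 4.84). Dbi, an acyl-CoA-binding protein, was at 39.7, 13.1, 13.6 and 5.10 FPKM. For these genes, as for Fabp7 above, SFMA was higher than every other library. The summed level of the 7 radial glia and progenitor markers shares Fabp7 and Hes5 with this list and is not corrected for length. It was lower on L-SFMA, and most of it is the filament gene Vim (1088, 486, 535 and 633 FPKM).

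The Sox family had a median of -0.32, with 2 of 14 members at least 1.5-fold lower and 1 higher. As measured the median was -0.16, with 2 lower and 2 higher, and with a filter of 1 read or a pseudocount of 5 FPKM it also fell short of 0.25. Sox3 and the glial factor Sox8 (6.86, 3.79, 3.04 and 3.20 FPKM) were lower, whereas Sox11, a factor of newborn neurons, was higher at 162, 308, 239 and 183 FPKM, a ratio of 1.90 (1.84 to 1.96). The Notch pathway, which keeps radial glia from differentiating, had a median of 0.03 with 2 of 30 higher and 3 (Lfng, Dll4 and Notch2) lower. Its target Hes5 was higher, as was Mib1, a ubiquitin ligase that activates Notch ligands (6.29, 14.1, 10.7 and 19.0 FPKM), while Lfng, which modifies Notch receptors, was at 23.9, 8.63, 5.79 and 3.83 FPKM, a ratio of SFMA to L-SFMA of 2.77 (2.45 to 3.14). Astrocyte lineage genes had a median of -0.26 (-0.23 as measured, short of 0.25), with 2 of 16 higher (Slc1a2 and Apoe) and 3 lower (Slc1a3, Cst3 and Gja1), and share Slc1a3 and Sox9 with the radial glia list. Their secreted protease inhibitor Cst3 was at 86.6, 36.0, 47.9 and 31.0 FPKM, and the lipid carrier Apoe at 12.8, 17.7, 8.43 and 2.86 FPKM, highest on L-SFMA. For oligodendrocyte genes the median over 8 members was -0.46, with 3 lower (Olig1, Olig2 and Sox8) and 1 higher. Its lineage factor Olig1 was at 7.07, 2.31, 2.21 and 1.68 FPKM. Among the other markers of this lineage, Sox10 lay at -0.45, whereas Mbp was at 3.02, 4.02, 3.53 and 3.25 FPKM (0.20 corrected). Pdgfra, under 1 FPKM in each library, had 4 reads on SFMA and 28 on L-SFMA. With a pseudocount of 5 FPKM or a filter of 1 read the list median fell short of 0.25.

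Both lists of cell division genes were lower, with 0 members at 2-fold after correction. As measured the medians were -0.56 for replication and -0.33 for mitosis, and single members such as Spc24 were past 2-fold. DNA replication genes had a median of -0.48, with 15 of 43 at least 1.5-fold lower, 0 higher and 40 below SFMA. Uhrf1, which maintains DNA methylation after replication, was at 35.3, 20.5, 18.4 and 13.8 FPKM, and the replicative helicase subunits Mcm6 and Mcm5 at 60.5, 39.0, 43.1 and 41.6 FPKM and at 41.7, 24.5, 25.01 and 19.5 FPKM. Mitosis genes had a median of -0.45, with 17 of 47 lower, 0 higher and 45 below SFMA. The kinetochore genes Spc25 and Spc24 were at 31.5, 12.4, 13.4 and 14.3 FPKM and at 38.9, 14.2, 12.1 and 6.82 FPKM, with Cdca3 at 38.9, 17.4, 15.6 and 13.99 FPKM and the mitotic cyclin Ccnb2 at 26.7, 12.6, 13.9 and 12.2 FPKM. SFMA was the highest library for all of these genes. The medians on N-SFMA and NL-SFMA were -0.40 and -0.39 for replication and -0.51 and -0.30 for mitosis. Among regulators of the G1 phase, the median was -0.15, with 4 of 27 lower (Ccnd1, Ccnd2, Cdkn1a and Cdk4) and 0 higher, and cyclin D1 (Ccnd1) was at 15.1, 5.96, 5.02 and 6.46 FPKM.

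The promoters of these cell division genes were searched for motifs known from cell cycle genes. For each list 1 promoter is shown, that of the most decreased member with a match and at least 5 FPKM. In the replication list Uhrf1 (-0.93) was more decreased than Mcm6 (-0.82) and had no match. Windows are the 250 bases upstream of the annotated start in RefSeq (build GRCr8), which matched 36 of the 43 replication genes and 42 of the 47 mitosis genes. An E2F motif (TTTCGCGC, TTTGGCGC or TTTCCCGC on either strand) was in 10 of 36 replication genes (27.8%) and in 1.41% of 33469 RefSeq promoters. It was in 3 of the 14 members at least 1.5-fold lower and in 7 of the other 22. A CCAAT box (CCAAT on either strand) was in 34 of 42 mitosis genes (81.0%) and 34.02% of all promoters, in 12 of 15 lower members and 22 of the other 27. For neither motif was the share among the lower members above that among the rest. In the Mcm6 promoter (GRCr8 chr13:42404353-42404602, minus strand) capitals mark 2 overlapping E2F matches, 139 and 135 bases upstream, and in the Spc25 promoter (chr3:74396719-74396968, minus strand) they mark a CCAAT box 104 bases upstream.
Mcm6: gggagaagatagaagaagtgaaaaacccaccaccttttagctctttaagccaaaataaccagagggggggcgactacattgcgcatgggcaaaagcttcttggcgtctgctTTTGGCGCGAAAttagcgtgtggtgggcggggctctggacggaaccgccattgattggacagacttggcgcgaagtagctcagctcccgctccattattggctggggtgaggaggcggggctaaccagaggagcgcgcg
Spc25: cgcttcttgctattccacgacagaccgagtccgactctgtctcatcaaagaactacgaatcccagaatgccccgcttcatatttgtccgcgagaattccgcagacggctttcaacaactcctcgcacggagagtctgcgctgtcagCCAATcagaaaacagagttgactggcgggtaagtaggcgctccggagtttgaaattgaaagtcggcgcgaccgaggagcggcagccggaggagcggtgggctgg

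Immediate early genes, which cells switch on within minutes of a stimulus without new protein synthesis, had a median of -0.42, with 10 of 22 at least 1.5-fold lower and 0 higher. The corrected median was -0.54 on N-SFMA and -0.88 on NL-SFMA. Fos, a subunit of the AP-1 factor, was at 15.7, 1.62, 0.816 and 0.799 FPKM, a ratio of SFMA to L-SFMA of 9.69 (7.05 to 13.6). The nuclear receptor Nr4a1 was at 7.89, 0.620, 0.511 and 0.0795 FPKM, a ratio of 12.7 (8.60 to 19.6). For both genes SFMA was the only library above 2 FPKM. Ier2 was at 15.2, 9.81, 8.30 and 3.31 FPKM and the stress-induced factor Atf3 at 5.68, 2.10, 2.22 and 0.820 FPKM, corrected differences of -0.93 and -0.89. The cyclic AMP response element (CRE, TGACGTCA, which reads the same on both strands) was in 4 of the 16 listed genes with a RefSeq promoter and in 1.59% of all promoters, in 2 of 6 lower members and 2 of the other 10. Nr4a1, Fosb, Npas4 and Egr1 were more decreased than Ier2 and had no CRE match, and Fos was not among the 16. Ier2 was the most decreased of the 4 members with a match, so it does not stand for the list. The Ier2 promoter (GRCr8 chr19:40399123-40399372, plus strand) is shown with its CRE in capitals, 66 bases upstream of the start.
Ier2: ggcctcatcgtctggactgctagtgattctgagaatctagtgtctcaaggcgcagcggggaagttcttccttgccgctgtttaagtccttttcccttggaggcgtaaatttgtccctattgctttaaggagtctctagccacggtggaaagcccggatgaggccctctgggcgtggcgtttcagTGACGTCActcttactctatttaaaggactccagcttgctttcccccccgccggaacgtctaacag

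FGF and ERK feedback genes had a median of -0.27 and a wide spread, with 7 of 19 at least 1.5-fold lower and 0 higher. As measured the median was -0.03, with 6 lower and 1 higher, so the list passed 0.25 only with the correction. The induced ETS factors formed the lower end. Etv5 was at 33.02, 8.40, 6.17 and 7.68 FPKM, a ratio of SFMA to L-SFMA of 3.93 (3.58 to 4.33), and Etv1 at 7.58, 4.11, 3.52 and 6.48 FPKM. With Etv4 and Spry4 above, the 4 named members lay between -2.97 and -1.25 after correction. The corrected list median on N-SFMA and NL-SFMA was -0.54 and -0.57. The members outside those 7, the FGF receptors among them, differed by less than 1.5-fold, so the list median is far smaller than these differences.

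Of 4 compared metallothioneins, which bind zinc and copper, Mt3 and Mt2A were at least 1.5-fold lower after correction. Mt1 was at 22.5, 8.79, 6.65 and 5.07 FPKM, a difference of -1.26 as measured and -0.49 corrected, and Mt4 at 1.34, 0.956, 0.506 and 0 FPKM, -0.26 as measured and 0.52 corrected on few reads. Mt1 and Mt4 are given after their values were seen, to complete the family. The wider list of metal handling genes had a median of -0.06 (-0.26 as measured), with 3 of 18 lower and 0 higher. Mt3, the metallothionein of the brain, was at 280.3, 36.7, 36.1 and 23.5 FPKM, a ratio of SFMA to L-SFMA of 7.63 (6.64 to 8.81), and Mt2A was at 126, 19.4, 18.9 and 20.9 FPKM, a ratio of 6.51 (5.39 to 7.92). Both were highest on SFMA, with the other three libraries far below. Their models are short (375 and 391 bases) and close copies may share reads. The zinc importer Slc39a1 was at 37.1, 23.2, 25.8 and 23.7 FPKM and the iron store subunit Ftl1 at 838, 565, 641 and 264 FPKM. A core metal response element (MRE, TGCACNC or TGCGCNC on either strand) was in all 3 lower members with a RefSeq promoter, in 7 of the other 12 and in 20.6% of all promoters. The Mt3 promoter (GRCr8 chr19:10856081-10856330, minus strand) is shown with 3 MRE matches in capitals, 110, 81 and 51 bases upstream, of which the middle one is on the opposite strand.
Mt3: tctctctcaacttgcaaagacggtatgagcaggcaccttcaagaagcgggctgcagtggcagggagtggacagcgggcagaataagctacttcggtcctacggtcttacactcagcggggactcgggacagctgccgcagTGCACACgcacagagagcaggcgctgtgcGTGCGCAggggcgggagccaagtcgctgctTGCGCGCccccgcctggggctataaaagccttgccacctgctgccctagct

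Antioxidant enzymes had a median of -0.26, with 7 of 33 lower and 0 higher. The superoxide dismutase Sod1 was at 138, 64.1, 74.7 and 39.2 FPKM, the glutathione transferase Gsto1 at 14.8, 8.34, 11.99 and 6.56 FPKM, and the peroxiredoxins Prdx6 and Prdx4 at 16.2, 12.5, 13.2 and 11.1 FPKM and at 54.3, 26.4, 32.0 and 29.1 FPKM. These 4 genes were highest on SFMA. Their measured list median of -0.48 was reduced by the correction.

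Proteins of the cytosolic ribosome had a median of -0.55, with 26 of 57 at least 1.5-fold lower, 0 higher and 56 below SFMA. Their share of reads was 3.77% on SFMA, 1.99% on L-SFMA, 2.48% on N-SFMA and 1.67% on NL-SFMA. As measured the median was -0.98, so a part of this difference goes with the length trend that short ribosomal protein models follow. Rpl30 was at 32.4, 13.1, 14.3 and 21.6 FPKM, Rpl37 at 248, 86.4, 110.4 and 43.0 FPKM and Rpl22l1 at 75.3, 26.7, 33.7 and 40.1 FPKM, and many ribosomal protein genes have processed copies with which reads may be shared. The list of translation elongation and termination factors had a median of -0.38, beside -0.01 on N-SFMA and -0.10 on NL-SFMA. Of its 12 members, 10 lay below SFMA, 4 were lower (Naca, Tpt1, Btf3 and Eef1g) and 0 higher. Among these 4 only Eef1g is itself an elongation factor. Naca, the subunit of the complex that meets nascent chains at the ribosome, was at 108, 56.4, 65.6 and 36.0 FPKM, Tpt1 at 1115, 581, 711 and 644 FPKM and the elongation factor subunit Eef1g at 796, 502, 667 and 413 FPKM. L-SFMA was below SFMA and N-SFMA in all 3 genes. Initiation factors had a median of -0.23, with 2 of 51 lower, 0 higher and 37 below SFMA, beside -0.02 and 0.02 on N-SFMA and NL-SFMA. Their share of 3.92% lower was under the 7.26% over all compared genes. The lower members were Eif4ebp1, a repressor of cap-dependent translation (35.6, 15.9, 15.2 and 6.66 FPKM), and Eif3m (65.2, 39.95, 50.6 and 64.3 FPKM).

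Nuclear genes of the respiratory chain were lower. For complex I subunits the median was -0.35 (8 of 36 lower, 0 higher), and Ndufa4 stood at 42.3, 20.2, 18.6 and 12.7 FPKM and Ndufs7 at 20.2, 13.8, 14.1 and 6.91 FPKM. For subunits of complexes II to V the median was -0.40 (11 of 46 lower, 0 higher), and the cytochrome oxidase subunit Cox7c stood at 148, 54.8, 68.8 and 54.5 FPKM and the ATP synthase subunit Atp5f1c at 46.9, 34.2, 43.3 and 37.8 FPKM. Mitochondrial ribosomal proteins had a median of -0.33, with 11 of 50 lower and 0 higher, led by Mrps18c (14.7, 5.71, 8.28 and 4.30 FPKM). The measured medians of the 3 lists were -0.71, -0.82 and -0.57. Genes encoded in the mitochondrial genome did not share this direction after correction. Their median was 0.27, with 2 of 12 higher and 1 lower, but -0.29 as measured, so its sign depends on the length correction. They held 2.68% of the reads on SFMA and 2.33% on L-SFMA, beside 5.89% on NL-SFMA. The complex I subunit Mt-nd5 was at 291, 457, 400.2 and 2314 FPKM and Mt-nd6 at 177, 239, 221 and 1324 FPKM, overlapping genes on opposite strands whose reads cannot be told apart without a stated strand setting, and Mt-nd3 was at 1827, 669, 719 and 2555 FPKM.

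Other lower lists concerned biosynthesis and protein turnover. For serine, one-carbon and nucleotide synthesis the median was -0.30 (8 of 27 lower, 0 higher), beside -0.11 on N-SFMA and -0.16 on NL-SFMA. Phgdh, the first enzyme of serine synthesis, was at 99.6, 41.9, 50.2 and 35.7 FPKM, and the nucleotide synthesis enzymes Paics and Umps were at 41.6, 23.2, 30.3 and 22.5 FPKM and at 25.1, 14.2, 18.8 and 11.7 FPKM. L-SFMA lay below SFMA and N-SFMA in all 3. The proteasome and COP9 signalosome had a median of -0.27, with 42 of 44 members below SFMA. At 1.5-fold, 4 were lower (Pomp, Psma2, Psmb3 and Psmc6) and 0 higher. That share of 9.09% lower was near the 7.26% over all compared genes. The assembly factor Pomp was at 69.0, 35.5, 39.4 and 19.0 FPKM. By contrast, the HECT and giant ubiquitin ligases, whose models are long, had a median of 0.31. Of 26 members, 3 (11.5%, beside 8% over all compared genes) were higher: Mycbp2, Birc6 and Herc2. The axonal ligase Mycbp2 was at 3.37, 12.3, 9.82 and 19.0 FPKM. The 1 lower member, Nedd4, was at 48.2, 57.7, 55.9 and 79.1 FPKM. Its difference was 0.25 as measured and -0.59 corrected, so the decrease comes from the trend of long models.

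Actin-linked genes and targets of the factor SRF had a median of -0.37, with 5 of 15 lower (Cnn2, Tagln2, Myh9, Myl9 and Fhl2) and 0 higher, beside a measured median of -0.01. Apart from Cnn2, the actin-binding Tagln2 was at 13.01, 4.10, 3.22 and 2.28 FPKM and the myosin heavy chain Myh9 at 7.14, 7.196, 5.93 and 4.63 FPKM. Myh9 had nearly the same level on both hydrogels, and its corrected difference of -0.66 comes from the trend of long models. Septins, filament proteins of the cell cortex, had a median of -0.36 (2 of 10 lower, Septin7 and Septin4, and 0 higher) and -0.03 as measured, with Septin7 at 25.6, 20.1, 19.9 and 21.998 FPKM. NF-kappaB targets and inflammatory genes had a median of -0.40 (3 of 16 lower, Cxcl2, Il1b and Nfkbie, and 0 higher), with the chemokine Cxcl2 at 5.37, 1.54, 5.14 and 1.71 FPKM and the cytokine Il1b at 9.09, 4.26, 6.63 and 3.40 FPKM. In both genes SFMA and N-SFMA lay above L-SFMA and NL-SFMA. The interferon response list had a median of -0.28 over 7 members (2 lower, Irf1 and B2m, and 0 higher), with B2m, the light chain of MHC class I molecules, which present antigens, at 29.1, 13.3, 10.9 and 12.2 FPKM.

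Genes of red blood cells gave the lowest list median, -1.19, with 7 of 10 at least 1.5-fold lower and 0 higher. Haemoglobin genes held 0.153% of the reads on SFMA, 0.0267% on L-SFMA, 0.0468% on N-SFMA and 0.0207% on NL-SFMA. The adult globin Hba-a1 was at 494, 82.7, 147 and 59.6 FPKM, the embryonic globin Hbe1 at 21.4, 0.890, 2.30 and 2.05 FPKM and Hbb at 23.2, 4.98, 8.95 and 5.94 FPKM. The globins are close copies, so their reads may be shared. The summed level of the erythroid markers was 550 FPKM on SFMA and 91.7 on L-SFMA, and that of the microglia markers 21.3 and 14.8 FPKM. Neither sum is corrected for length. Most of the microglia sum was Tyrobp (15.7 and 10.3 FPKM), which lay at 0.14 after correction. The other compared microglia markers, Csf1r and Aif1, lay at -0.45 and -0.17. The list of microglia and macrophage genes had a corrected median of -0.17, short of the size rule, with 3 of 11 lower and 1 higher. Whether the share of red blood cells or microglia has a part in the differences of other lists was not tested.

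Many functions lay near SFMA after correction. Medians were between -0.10 and 0.10 for glycolysis (-0.08), cholesterol synthesis (-0.08), heat shock proteins (-0.04), ER stress and ATF4 targets (-0.01), autophagy (0.00), lysosomal enzymes (0.00), the Wnt pathway (0.06) and solute carriers (0.10). Postsynaptic scaffolds (-0.01, measured 0.47) and kinesins (-0.05, measured 0.41) had high medians as measured that the correction took away. Histone genes went from -0.58 to -0.16. Integrins and focal adhesion genes, which link cells to matrix, had a median of -0.21 but 0.18 as measured. After correction 4 of 24 were lower (Parva, Zyx, Itga5 and Itgb5) and 0 higher, and the adaptor Parva was at 27.5, 12.4, 15.8 and 18.5 FPKM. In lipoprotein handling, Lrp1, the large receptor for lipoproteins, was at 5.84, 24.0, 13.3 and 22.4 FPKM and the reelin receptor Lrp8 at 11.2, 24.8, 17.0 and 27.3 FPKM, in a list with a median of 0.20 and 5 of 21 members higher (Lrp1, Lrp6, Lrp8, Sorl1 and Apoe). Both were lowest on SFMA.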

How the data were processed

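RNA of cortical cells on 4 hydrogels was measured with 1 poly(A) RNA library each, made with NEBNext Ultra from 1.5 µg of RNA and sequenced on a NovaSeq instrument, per the labels' protocols. The deposited tables give for each gene a whole-number read count and an FPKM value computed by the authors. HISAT2 and HTSeq 0.13.5 are named in the submitters' processing notes, with the builds mRatBN7.2 and GRCh38 and no role for either. The sources used here do not state alignment, strand or filter settings. The FPKM of the authors equals the count over gene model length and summed count, and model lengths recovered from both columns were whole numbers to within 1e-06 bases.

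The log2 ratio of FPKM used a pseudocount of 1, which understates ratios of genes with low values. A lowess curve on log2 length (span 0.3, 3 robust iterations, statsmodels 0.14.6) was subtracted. Single genes were counted at 2-fold and list members at 1.5-fold. A list was called higher or lower with at least 5 compared members and a median of at least 0.25 in size. CPM ratios carry exact Clopper-Pearson 95% intervals conditional on both counts. Intervals and the floor of 3 counts cover counting error only, since PCR copies of a molecule cannot be recognised without molecular identifiers. With 1 library a side no test was possible. The calculation was tested on simulated data.

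Named genes have an assigned symbol and at least 5 FPKM in the higher library: the 15 largest corrected differences each way, and up to 4 per list described. Other members named beside counts of 5 or fewer were chosen after their values were seen. A few members that the rule names are not reported here. The comparison, its members and the gene lists were chosen with earlier results of these data known. Promoters are RefSeq windows of build GRCr8, and other coordinates were not used here. Alternatives included TMM (edgeR 4.0.16) and median-of-ratios (DESeq2 1.42.0) scaling of the deposited counts, other trends, pseudocounts and filters.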

Additional observations from a re-analysis of the deposited data

How the results depend on the processing

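Against 288 genes higher and 152 lower, 14 alternatives planned and 2 added after seeing the data (at least 100 reads over both libraries, and models of at least 500 bases) were run. The count of higher genes was 42 with a pseudocount of 5 FPKM, 165 with an FPKM of at least 5, 171 with models of 1000 to 8000 bases and 172 with at least 100 reads. The count of lower genes was 58 with a pseudocount of 5 FPKM, 239 with a filter of 1 read, 377 without trend removal and 447 with TMM scaling without trend removal. Other alternatives moved either count by less than 1.5 times. Of the 33 lists past 0.25, 32 had the same sign in each alternative, but 11 were past 0.25 in each that gave them a value. The number still past 0.25 was lowest with a pseudocount of 5 FPKM (18) and a filter of 1 read (23), and 27 without trend removal. Glutamate receptors went down to 0.09, protocadherins to 0.11, Eph receptors and ephrins to 0.12 and Sox factors to -0.08. The exception was the mitochondrially encoded genes, at -0.29 without trend removal and -0.35 with TMM and no trend removal, because their models are short. TMM moved the median of all genes by -0.06. All 81 named genes past 2-fold kept their sign and 31 of them were past 2-fold in each alternative, among them Slco1c1, Etv4, Fabp7, Nrp1, Cntn2 and Eomes. Counts limit genes with few reads, such as Ghrl with 22 on SFMA. No paired analysis was possible because each hydrogel has 1 library and the labels give no replicate numbers.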

Other observations

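Several genes of developmental signals differed although the medians of their lists were short of 0.25. The corrected medians were 0.14 for the BMP and TGF-beta pathway, 0.06 for the Wnt pathway, -0.12 for neurotrophic factors and receptors (4 of 19 at least 1.5-fold higher and 3 lower) and -0.17 for the Hippo pathway (1 of 21 higher and 4 lower). The activin receptor Acvr2a was at 8.22, 18.7, 15.7 and 27.3 FPKM in the order SFMA, L-SFMA, N-SFMA and NL-SFMA, and the type II BMP receptor Bmpr2 at 3.58, 9.51, 6.08 and 18.0 FPKM, both lowest on SFMA. Fstl1, a secreted modulator of BMP signals, was at 19.1, 12.6, 10.8 and 17.4 FPKM, highest on SFMA. The Wnt ligand Wnt7a was at 21.4, 12.6, 13.4 and 13.7 FPKM, whereas the Wnt receptors Fzd1 and Lrp6 were at 30.1, 48.3, 38.4 and 31.7 FPKM and at 3.24, 8.42, 6.31 and 10.4 FPKM. The insulin-like growth factor receptor Igf1r was at 4.87, 12.1, 8.40 and 14.5 FPKM and the binding protein Igfbp4 at 6.33, 2.78, 4.08 and 1.79 FPKM. The Hippo pathway effector Yap1 was at 10.6, 7.11, 5.72 and 7.47 FPKM and its target Ccn1 at 7.91, 3.20, 3.52 and 4.53 FPKM, corrected differences of -0.80 and -0.93.

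Single genes of other functions were past 2-fold after correction. Among auxiliary subunits of calcium channels, Cacng2 was at 2.73, 5.07, 4.11 and 5.26 FPKM and Cacna2d1 at 3.60, 9.61, 7.07 and 16.2 FPKM, with corrected differences of 1.16 and 1.03. Lmna, which encodes the A-type lamins of the nuclear envelope, was at 17.8, 9.42, 8.89 and 4.83 FPKM, a difference of -1.03, while the neurofilament genes Nefl and Nefm were at 7.61, 10.4, 10.7 and 11.6 FPKM and at 19.5, 30.3, 35.1 and 25.6 FPKM. Suclg2, an enzyme of the citric acid cycle, was at 9.98, 3.36, 5.32 and 4.65 FPKM, a difference of -1.55. Sparcl1, a matrix protein of radial glia and astrocytes, was at 12.9, 5.73, 4.33 and 3.12 FPKM. Cacng2, Lmna and the splicing factors Srsf4 and Hnrnpf passed 2-fold only with the length correction. Srsf4 and Hnrnpf were at -0.04 and -0.21 as measured and -1.03 and -1.02 corrected.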
